A study of Mus musculus with 2 samples.

Results

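Genes of fatty acid metabolism were compared in glioblastoma stem cells of the mouse, brain tumour cells kept as neurospheres in serum-free medium. The set holds 45 genes, chosen for their roles in making, lengthening, desaturating, activating, burning and storing fatty acids. Array probes were assigned to them through the RefSeq accession each probe carries, which gave 73 of 56595 probes and 45 of 23784 named genes. The line came from glioblastomas induced de novo with the SB transposon, and the labels do not say whether it is clonal. The knockdown group stably carried a lentiviral Gli2 shRNA, and the control group a lentiviral non-target shRNA, in the same line. Each group is 1 array of total RNA, so there are no replicates. No test and no p-value can be given. The ± values below are the scanner software's own error of the log2 difference, not a spread measured between replicate spots or cultures. Its median over genes well above background on both arrays was 0.204, and it is close to that value for most bright probes. For such probes, being within the error mostly means a difference below about 0.20.

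The arrays were close in the share of probes above background. Of the probes, 57.1% on the Gli2 shRNA array and 59.5% on the control array were well above background by the software's own flag. By brightest probe, 476 named genes passed this flag on the Gli2 shRNA array only and 931 on the control array only. Signals are given relative to each array's own 75th percentile over non-control probes, which was a processed signal of 399 for Gli2 shRNA and 329 for control. Equal raw signals on the arrays thus correspond to a log2 difference of -0.28. Gli2, the zinc finger transcription factor that the shRNA targets, had a signal of 57.9 in Gli2 shRNA cells and 98.1 in control cells, a difference of -1.04 ± 0.22, which was -0.64 with normexp. Normexp here means background correction of median spot signals with an offset of 50, and adding an offset by itself shrinks the differences of dim probes. Gli1 (-0.32 ± 0.21), Gli3 (-0.60 ± 0.20) and the Hedgehog receptor Ptch1 (-0.69 ± 0.22, and -0.04 on its dimmer probe) were also below 0. All 8 neural stem cell markers examined had signal on at least 1 array, with Sox2, Nes, Olig2, Pax6, Msi1, Fabp7 and Vim well above background on both. Of 6 adipocyte markers, 5 (Adipoq, Plin1, Cidec, Fabp4 and Retn) were not well above background on either array, and Lep was. The summed relative signal of the adipocyte markers was 0.619 in Gli2 shRNA cells and 0.627 in control cells. Neuron markers, all 6 measured on both arrays, summed to 55.0 in Gli2 shRNA cells and 70.3 in control cells. Of these, 3 were above 0 and 3 below, with a median of 0.007, and Map2 (40.5 in Gli2 shRNA cells and 56.7 in control cells) made up most of the sum while Tubb3 was at 0.74 ± 0.20. The 6 astrocyte markers summed to 18.7 in Gli2 shRNA cells and 21.5 in control cells, most of it from Slc1a3 (17.7 in Gli2 shRNA cells and 20.2 in control cells). All 4 measured on both arrays were below 0, with a median of -0.33, and Gfap was well above background on the control array only. The part of these cell types in the results was not tested.

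Fatty acids are built in the cytosol from acetyl-CoA, which Acly makes from citrate, Acaca and Acacb carboxylate to malonyl-CoA, and Fasn joins into palmitate. Elovl enzymes lengthen the chains and Scd and Fads enzymes put in double bonds. Acsl enzymes couple fatty acids to coenzyme A. The Cpt proteins then carry them into mitochondria for beta-oxidation, or Gpam, Lpin and Dgat enzymes join them to glycerol for storage in lipid droplets. Neural stem cells use both routes, and glioblastoma cells are known for active lipid synthesis.

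No fatty acid gene measured in both Gli2 shRNA and control cells differed by 2-fold. Of the 45 members, 43 were well above background on both arrays, 1 (Mgll) on the control array only and 1 (Lpin3) on neither. The count of 0 members past 2-fold in either direction stands against 1.84% of 14563 named genes that were 2-fold or more higher and 1.79% that were 2-fold or more lower. By a looser rule of 1.5-fold, 2 members were higher (Acadl and Fabp3) against 6.0% of all genes, and 2 were lower (Hadhb and Acsl4) against 6.54%. These shares are near the background, so the count itself does not set the members apart from other genes. The median difference was 0.02 over the members and 0.003 over all genes, with 23 members above 0 and 20 below. The quartiles were -0.17 and 0.15 over the members and -0.19 and 0.20 over all genes. For 22 of the 43 members the difference was no larger than its software error, and the same held for 7840 of the 14563 named genes. These shares are close, so this count does not set the members apart either. The split of all 1.5-fold calls depends on the scaling: 47.8% of them were higher as reported and 68.9% with arrays scaled to their medians, a setting that moved the median of all genes to 0.14.

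**Figure D1:**
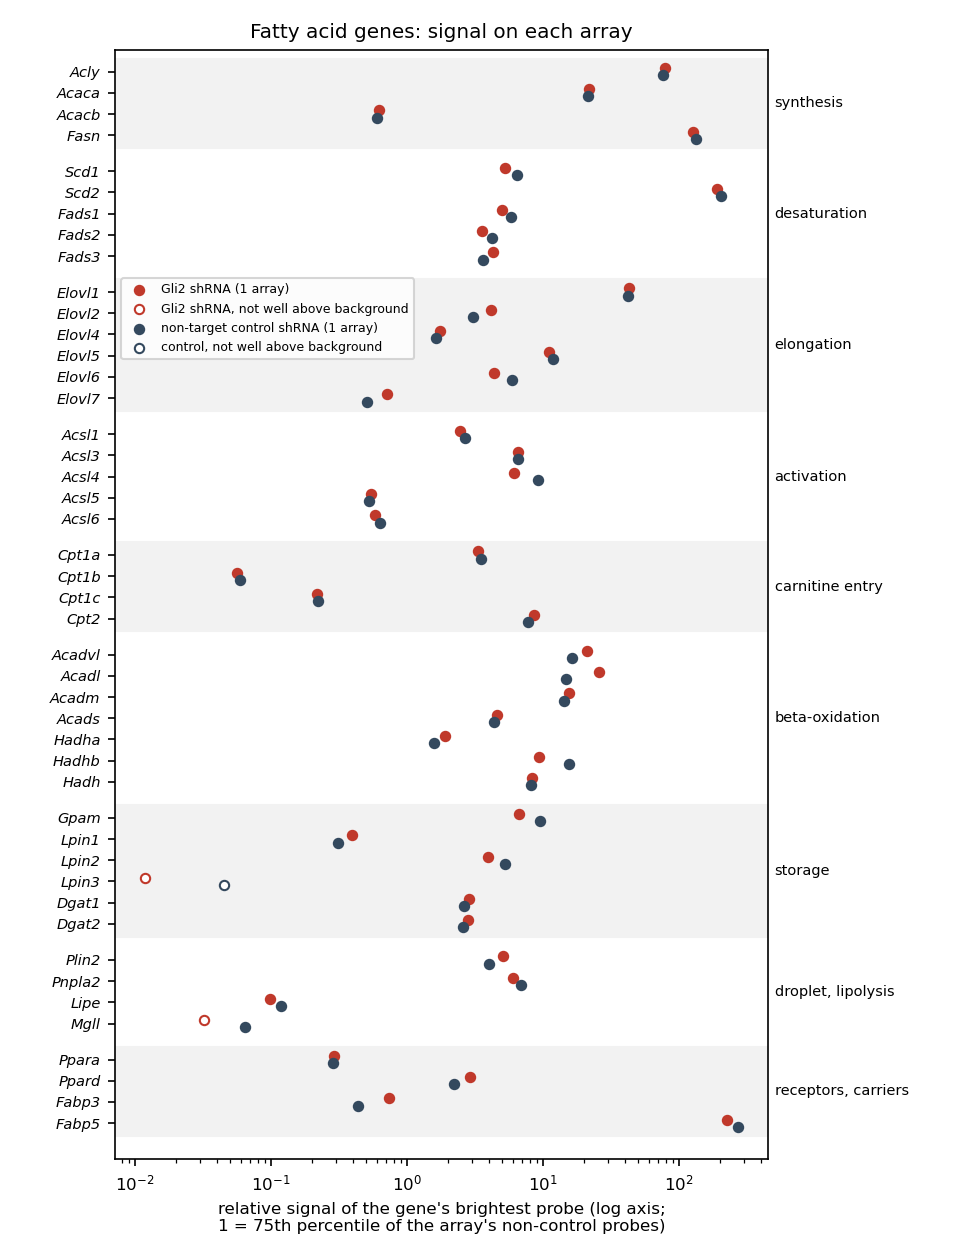
Relative signal of the brightest probe of each of the 45 members (log axis, where 1 is the 75th percentile of the array's non-control probes), with Gli2 shRNA drawn above control in each row. Most pairs of points lie close together, and the points of Acadl, Fabp3, Hadhb and Acsl4 are the farthest apart among members above background on both arrays.

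The promoters of the 4 members past 1.5-fold are shown because they let the genes be compared in sequence, Hadhb in particular, whose upstream stretch is shared with Hadha. Sequences are the 250 bases before the annotated start (RefSeq, GRCm38.p6), written 5′ to 3′ on the gene's strand. The windows are chr1:66863310-66863559 on the minus strand for Acadl, chr4:130308488-130308737 on the plus strand for Fabp3, chr5:30155003-30155252 on the plus strand for Hadhb and chrX:142390536-142390785 on the minus strand for Acsl4. Capitals mark GC boxes, the letters GGGCGG on either strand, which bind Sp family factors and may overlap each other.
Acadl: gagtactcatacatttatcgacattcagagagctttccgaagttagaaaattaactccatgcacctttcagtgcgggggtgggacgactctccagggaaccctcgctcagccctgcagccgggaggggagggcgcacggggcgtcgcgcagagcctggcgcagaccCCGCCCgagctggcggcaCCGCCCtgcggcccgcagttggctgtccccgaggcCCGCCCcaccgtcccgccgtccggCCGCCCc
Fabp3: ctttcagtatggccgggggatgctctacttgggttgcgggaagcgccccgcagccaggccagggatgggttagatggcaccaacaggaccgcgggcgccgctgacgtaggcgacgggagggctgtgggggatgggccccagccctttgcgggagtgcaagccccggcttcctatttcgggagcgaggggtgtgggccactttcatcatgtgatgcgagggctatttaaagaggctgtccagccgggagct
Hadhb: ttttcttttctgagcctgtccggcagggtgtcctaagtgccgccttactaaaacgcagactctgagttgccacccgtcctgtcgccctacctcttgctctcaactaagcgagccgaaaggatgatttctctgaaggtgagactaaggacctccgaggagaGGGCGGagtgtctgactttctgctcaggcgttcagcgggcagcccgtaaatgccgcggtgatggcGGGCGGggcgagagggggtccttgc
Acsl4: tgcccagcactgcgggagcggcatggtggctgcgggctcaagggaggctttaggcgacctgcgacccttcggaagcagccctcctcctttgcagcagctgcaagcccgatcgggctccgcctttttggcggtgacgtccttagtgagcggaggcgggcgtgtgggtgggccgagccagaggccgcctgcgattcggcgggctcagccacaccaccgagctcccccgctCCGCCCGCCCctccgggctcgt
The windows hold 4 GC boxes for Acadl, 2 for Hadhb and 2 for Acsl4, and these letters are not in the Fabp3 window. Across the 49 promoter windows found for 38 of the 45 members, 31 (63.3%) hold a GC box, against 32.7% of all 32851 windows. A member with several windows counts more than once. The GC box is made of G and C alone, and these shares were not matched for base composition. The median GC content was 52.4% over all windows, while the 4 printed windows had 58.8% (Hadhb) to 70.8% (Acsl4). Its part in the difference was not tested. The GLI site GACCACCCA was in none of the 49 member windows and in 0.225% of all windows, both strands read. The sterol regulatory element TCACNCCAC was in 1 member window (Acsl1) and in 1.05% of all, and the DR1 element, 2 copies of AGGTCA with any 1 base between, to which PPAR receptors bind, was in none and in 0.0335% of all. The E-box CACGTG was in 4 member windows (8.16%) and 6.02% of all, and the CCAAT box in 17 (34.7%) and 33.8%. These are matches of letters in short windows and say nothing about binding in these cells.

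The core synthesis enzymes differed by less than the software error. Fasn, the fatty acid synthase (NM_007988, chromosome 11), had a relative signal of 126 in Gli2 shRNA cells and 134 in control cells, a log2 difference of -0.09 ± 0.20. Acly, the ATP citrate lyase, had 78.7 in Gli2 shRNA cells and 75.9 in control cells (0.05 ± 0.20). Acaca, the main cytosolic acetyl-CoA carboxylase, had 21.8 in Gli2 shRNA cells and 21.5 in control cells (0.02 ± 0.20). All 4 members of this role were within their software error on the brightest probe. Acacb, the carboxylase at the mitochondrial surface whose malonyl-CoA restrains Cpt1, had 0.623 in Gli2 shRNA cells and 0.601 in control cells on the brightest probe (0.05 ± 0.21). Its other probe, of the same accession, gave 0.60. The 3 other Acaca probes ran between -0.08 and 0.26, and the dimmer Acly probe gave 0.33.

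Among the desaturases, 4 of 5 lay below 0, while 50.3% of all genes lay above 0, and none reached 1.5-fold. Scd1, a stearoyl-CoA desaturase that makes oleate (chromosome 19), had a relative signal of 5.29 in Gli2 shRNA cells and 6.43 in control cells, a difference of -0.28 ± 0.20. Its neighbour in the family, Scd2, the main desaturase of the mouse brain, had 191 in Gli2 shRNA cells and 205 in control cells (-0.10 ± 0.20). The Scd1 difference minus that of Scd2 was -0.18 ± 0.29. Fads2, the delta-6 desaturase of polyunsaturated fatty acids, had 3.58 in Gli2 shRNA cells and 4.26 in control cells (-0.25 ± 0.20). Fads1, the delta-5 desaturase, had 5.05 in Gli2 shRNA cells and 5.84 in control cells (-0.21 ± 0.20). Their other probes gave -0.24 and -0.49, the same direction. Fads3, a family member acting on sphingoid bases, went the other way, with 4.27 in Gli2 shRNA cells and 3.63 in control cells (0.23 ± 0.20). The median of these 5 genes was -0.21. Scd2 lay at 0.04 with median scaling, 0.001 with quantile normalization and 0.0 with cyclic loess normalization. Scd1, Fads1 and Fads2 stayed below 0 in all 10 settings (as reported and 9 alternatives). With median scaling they lay at -0.146, -0.074 and -0.115, each within its software error.

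The elongases split by gene. Elovl7 and Elovl2 were the highest, and Elovl6 the lowest. Elovl7, which lengthens saturated long chains, had a relative signal of 0.718 in Gli2 shRNA cells and 0.510 in control cells (0.49 ± 0.21). Elovl2, which lengthens polyunsaturated chains on the way to docosahexaenoic acid, had 4.18 in Gli2 shRNA cells and 3.05 in control cells (0.45 ± 0.20). Elovl6, which turns palmitate into stearate, had 4.39 in Gli2 shRNA cells and 5.91 in control cells (-0.43 ± 0.20). None of these reached 1.5-fold, although Elovl2 and Elovl7 passed it with median scaling (0.59 and 0.63). The other 3 elongases were within their error. Elovl1, which acts on very long saturated chains, had 42.7 in Gli2 shRNA cells and 42.2 in control cells (0.02 ± 0.20). Elovl4, which makes the longest chains, had 1.76 in Gli2 shRNA cells and 1.64 in control cells (0.10 ± 0.20). Elovl5, which lengthens polyunsaturated chains, had 11.2 in Gli2 shRNA cells and 11.9 in control cells (-0.09 ± 0.20).

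Of the acyl-CoA synthetases, Acsl4 stood out. Acsl4, which prefers arachidonate and other polyunsaturated fatty acids (NM_207625, chromosome X), had a relative signal of 6.18 in Gli2 shRNA cells and 9.27 in control cells. The difference of -0.59 ± 0.20, 1.5-fold lower, lies at the edge of the rule. Its 3 probes ran between -0.59 and -0.49, so the probes went the same way. The other 4 synthetases were within their error. Acsl1 had 2.45 in Gli2 shRNA cells and 2.69 in control cells (-0.14 ± 0.20), and Acsl3 had 6.57 in Gli2 shRNA cells and 6.58 in control cells (-0.001 ± 0.20). Acsl5 had 0.54 in Gli2 shRNA cells and 0.525 in control cells (0.04 ± 0.21). Acsl6, the form of brain, had 0.586 in Gli2 shRNA cells and 0.64 in control cells (-0.13 ± 0.21). Acsl1 and Acsl6 each had a second probe on the other side of 0 (0.23 and 0.21).

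**Figure D2:**
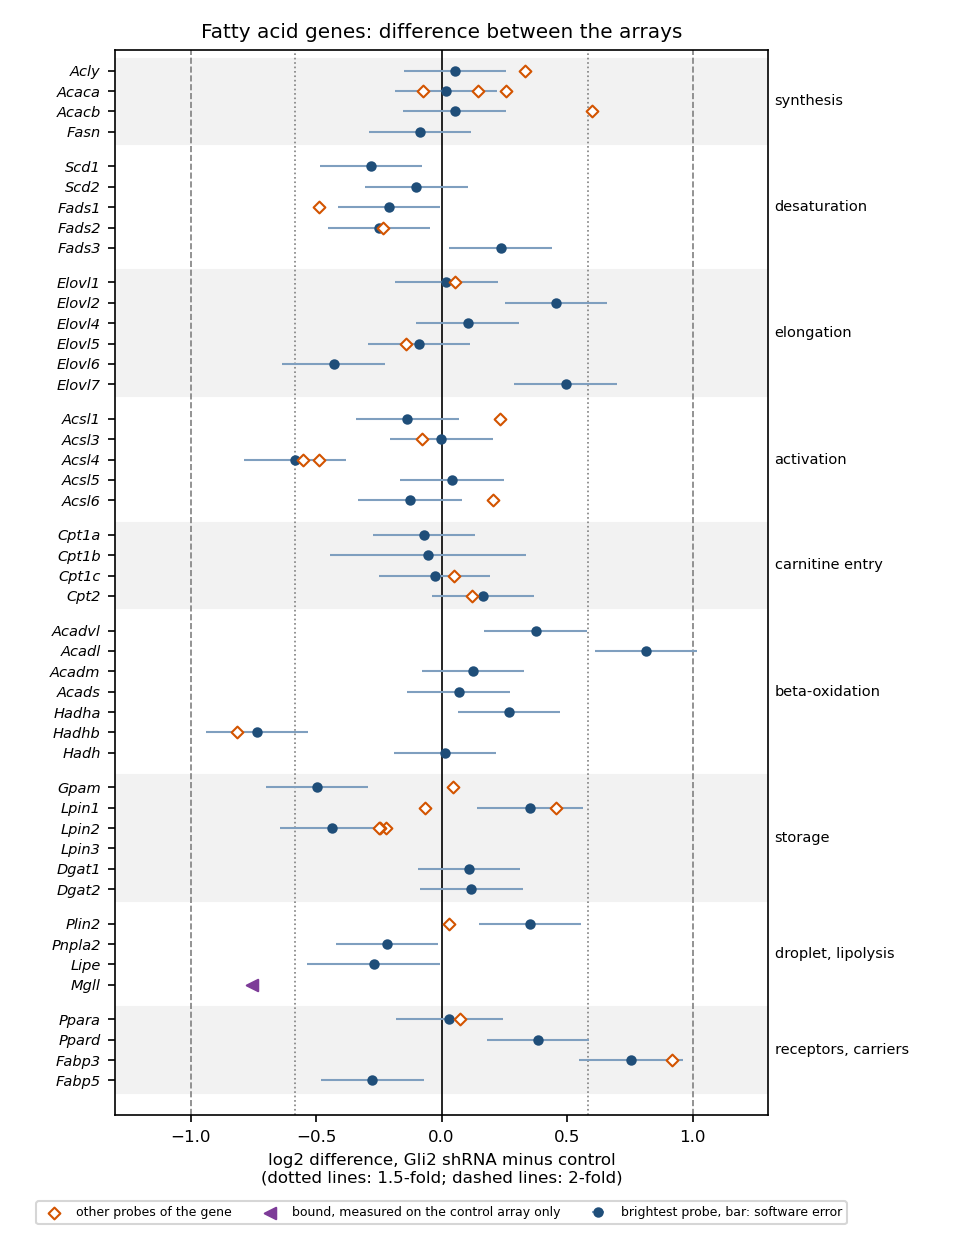
Log2 difference, Gli2 shRNA minus control, of each member by role. Filled points are brightest probes with the software error, open diamonds are the genes' other probes above background on both arrays, and the triangle is the bound for Mgll. Acadl and Fabp3 lie right of the dotted 1.5-fold line and Hadhb and Acsl4 left of it or on it, and no filled point reaches the dashed 2-fold lines.

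The carnitine shuttle differed little. Cpt1a, the rate-limiting acyltransferase of mitochondrial entry in most tissues, had a relative signal of 3.33 in Gli2 shRNA cells and 3.50 in control cells (-0.07 ± 0.20). Cpt2, which hands the chain back to coenzyme A inside the mitochondrion, had 8.68 in Gli2 shRNA cells and 7.75 in control cells (0.16 ± 0.20). Cpt1c, the neuronal form, had 0.218 in Gli2 shRNA cells and 0.222 in control cells (-0.03 ± 0.22). Cpt1b, the muscle form, was close to background, with a processed signal of 22.6 in Gli2 shRNA cells and 19.4 in control cells (-0.06 ± 0.39). All 4 were within their error.

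Beta-oxidation held the highest and the lowest of the 43 members. Acadl, the long-chain acyl-CoA dehydrogenase (NM_007381, chromosome 1), had a relative signal of 25.8 in Gli2 shRNA cells and 14.7 in control cells, a difference of 0.81 ± 0.20 or 1.76-fold higher on its 1 probe. Hadhb, the thiolase subunit of the mitochondrial trifunctional protein (NM_001289798, chromosome 5), had 9.34 in Gli2 shRNA cells and 15.6 in control cells, a difference of -0.74 ± 0.20 or 1.66-fold lower. The other Hadhb probe gave -0.81, close to the brighter one. Hadha, the partner subunit with the hydratase and dehydrogenase activities, had 1.91 in Gli2 shRNA cells and 1.59 in control cells (0.27 ± 0.20). The Hadha and Hadhb genes lie head to head, with 272 bases between their annotated starts, and most of that stretch is the Hadhb sequence printed above. The Hadha difference minus the Hadhb difference was 1.0 ± 0.29, so the subunits of this complex differed in opposite directions by more than the software error. Hadha has 1 probe.

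The other dehydrogenases lay at or above 0. Acadvl, the very long-chain dehydrogenase of the inner membrane, had a relative signal of 21.0 in Gli2 shRNA cells and 16.2 in control cells (0.37 ± 0.20). Acadm, the medium-chain enzyme, had 15.7 in Gli2 shRNA cells and 14.4 in control cells (0.13 ± 0.20). Acads, the short-chain enzyme, had 4.57 in Gli2 shRNA cells and 4.36 in control cells (0.07 ± 0.20). Hadh, the 3-hydroxyacyl-CoA dehydrogenase of shorter chains, had 8.29 in Gli2 shRNA cells and 8.21 in control cells (0.01 ± 0.20). Thus 6 of 7 members of the spiral were above 0, with a median of 0.13, and Hadhb was the exception, against 50.3% of all genes above 0. The same 6 were above 0 in all 10 settings, some of which cannot move a gene's value. The share of all genes above 0 ran up to 68.8% with median scaling. Relative to the median of all genes, 5 of the 7 were above it with quantile and cyclic loess normalization.

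Glycerolipid synthesis was mixed. Gpam, the mitochondrial acyltransferase that starts triglyceride synthesis (chromosome 19), had a relative signal of 6.73 in Gli2 shRNA cells and 9.49 in control cells (-0.50 ± 0.20), while its dim second probe gave 0.04. Lpin2, a phosphatidate phosphatase, had 3.92 in Gli2 shRNA cells and 5.31 in control cells (-0.44 ± 0.20), and its 3 dimmer probes ran between -0.25 and -0.22. Lpin1, the family member that also acts as a nuclear coactivator, had 0.396 in Gli2 shRNA cells and 0.31 in control cells (0.35 ± 0.21), with other probes at 0.46 and -0.07. Dgat1 and Dgat2 finish the triglyceride molecule. Dgat1 had 2.84 in Gli2 shRNA cells and 2.63 in control cells (0.11 ± 0.20), and Dgat2 had 2.83 in Gli2 shRNA cells and 2.61 in control cells (0.12 ± 0.20). Lpin3 had a processed signal of 4.73 in Gli2 shRNA cells and 15.0 in control cells. It was not well above background on either array and has no fold.

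In droplet coating and breakdown no member measured on both arrays reached 1.5-fold. Plin2, the coat protein of droplets in most cells, had a relative signal of 5.12 in Gli2 shRNA cells and 4.01 in control cells (0.35 ± 0.20), with 0.03 on its dimmer probe. Pnpla2, the first triglyceride lipase, had 5.98 in Gli2 shRNA cells and 6.95 in control cells (-0.22 ± 0.20), and Lipe, the hormone-sensitive lipase, had 0.0981 in Gli2 shRNA cells and 0.118 in control cells (-0.27 ± 0.27). Mgll, the monoglyceride lipase, had a processed signal of 12.8 in Gli2 shRNA cells, not well above background, and 21.1 in control cells. With the smallest well-measured signal for Gli2 shRNA (15.2) as the floor, it had a bound of 1.69-fold lower. This bound is not a strict limit, because the control signal was dim and the software error of the difference was 0.47. A Ppargc1a probe with a signal of 17.7 on the Gli2 shRNA array also failed the flag. Among 931 genes that passed in control cells alone, 49.9% had a bound of 1.5-fold or more, near what is common among such dim genes. The other Mgll probe was above background on neither array.

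Among the receptors and carriers, Fabp3, a fatty acid-binding protein of heart and neurons (NM_010174, chromosome 4), was the higher member. It had a relative signal of 0.736 in Gli2 shRNA cells and 0.436 in control cells, a difference of 0.75 ± 0.21 or 1.69-fold, and its other probe gave 0.92. With normexp and its offset the Fabp3 difference was 0.43, which is within 1.5-fold. Fabp5, the epidermal form found in neural progenitors, had 226 in Gli2 shRNA cells and 273 in control cells (-0.28 ± 0.20). Ppard, the nuclear receptor that senses fatty acids in most tissues, had 2.90 in Gli2 shRNA cells and 2.22 in control cells (0.39 ± 0.20). Ppara, its relative that drives oxidation genes in liver, had 0.292 in Gli2 shRNA cells and 0.286 in control cells and was within its error (0.03 ± 0.21).

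Probes of the same member served as a further check. Of 20 members with several probes above background on both arrays, 14 had all of them on the same side of 0 and 6 did not (Acaca, Acsl1, Acsl6, Cpt1c, Gpam and Lpin1). The same side does not mean the same size. Among the 14, the probes of Acacb (0.05 and 0.60), Acly (0.05 and 0.33), Fads1 (-0.49 and -0.21) and Plin2 (0.03 and 0.35) lay apart by more than the software error. Those of the rest of the 14 did not. The matching share over all genes is not given here. Among the 4 members past 1.5-fold, Acsl4, Fabp3 and Hadhb had several probes, all in 1 direction, and Acadl has 1.

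The processing moved these 4 genes to different degrees. Acadl (0.81 to 0.95) and Hadhb (-0.77 to -0.60) stayed past 1.5-fold in all 10 settings. These are not 10 separate checks. The 2 settings on dim probes and the authors' table cannot move a gene's value beyond rounding. The mean of probes cannot move a gene with 1 probe, such as Acadl. Fabp3 ran from 0.43 to 0.89 and was within 1.5-fold with normexp alone. Acsl4 ran from -0.59 to -0.45 and was within 1.5-fold with median scaling, quantile normalization and the mean of probes. Of the 43 members, 22 lay above 0 and 11 below 0 in every setting that measured them (9 settings for Lipe), and the other 10 changed side. Elovl5 and Cpt1a changed side with median scaling alone, which put 68.8% of all genes above 0.

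**Figure D3:**
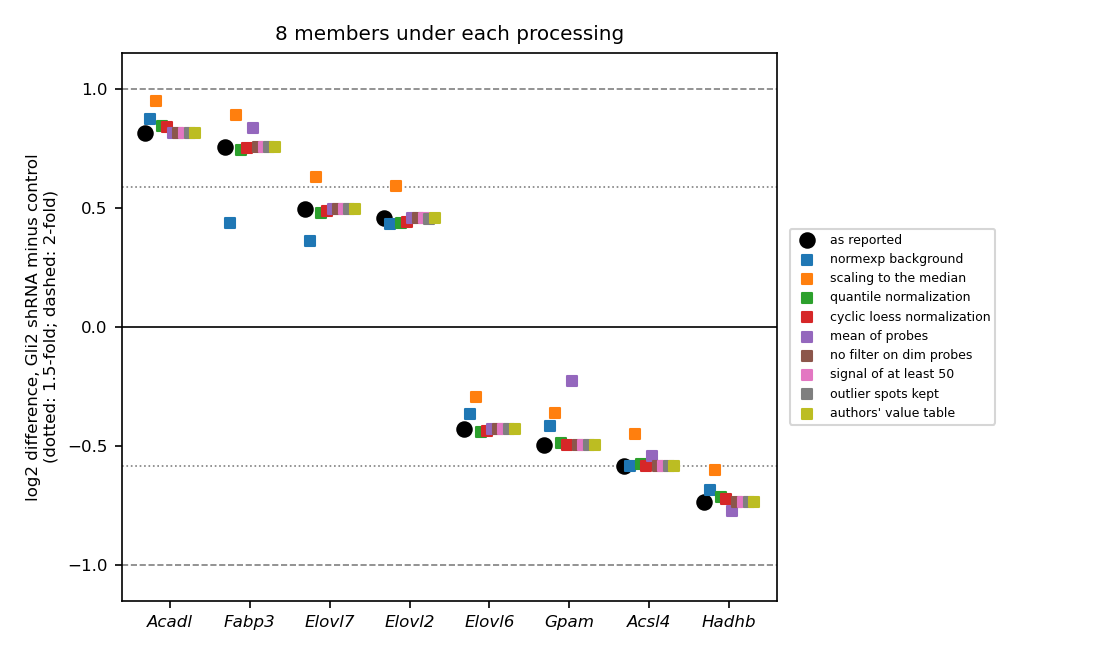
Log2 difference, Gli2 shRNA minus control, of 8 members under the reported processing (black circles) and 9 alternatives (coloured squares). Acadl and Hadhb stay outside the dotted 1.5-fold lines throughout, Fabp3 drops inside with normexp (0.43), and Acsl4 sits on the line.

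Other genes of lipid metabolism were described for comparison in 9 lists of 142 genes, of which 121 were measured on both arrays. Their median was 0.06, with 74 above 0 (61.2%, against 50.3% of all genes) and 47 below. By 2-fold, 2 were higher and 3 lower, against 1.84% and 1.79% of all genes. By 1.5-fold, 9 were higher and 10 lower, against 6.0% and 6.54% of all genes. These counts are near the background and do not set the 121 genes apart. In the list of mitochondrial oxidation and ketone body enzymes, 18 of 21 measured genes were above 0, against 50.3% of all genes. For 13 of the 21 the difference was no larger than its software error, against 7840 of 14563 named genes. The list was chosen with earlier results of these data known. The median of these genes was 0.18. Of them, 3 were 1.5-fold or more higher, against 6.0% of all genes, and none was lower by that rule or past 2-fold. The 2 highest were Decr1, the dienoyl-CoA reductase that handles unsaturated chains, at 0.87 ± 0.20, and Acad10, a poorly characterised dehydrogenase, at 0.73 ± 0.21 (0.32 with normexp). The 2 lowest were Hibch (-0.10 ± 0.20), a valine breakdown enzyme, and Eci2 (-0.05 ± 0.20), an enoyl-CoA isomerase. Relative to the median of all genes, 17 to 19 of the 21 lay above it under the alternatives that kept the same 21 genes.

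Of 18 measured regulators of lipid synthesis, 16 were within 1.5-fold, against 12736 of 14563 named genes. These shares are close and do not set the regulators apart. By 2-fold 1 was lower, against 1.79% of all genes. Srebf1, the transcription factor that drives fatty acid synthesis genes, differed by -0.24 ± 0.20. Mlxipl, its glucose-sensing counterpart, differed by 0.22 ± 0.21. Ppargc1a, a coactivator of mitochondrial and oxidation genes, was the gene past 2-fold, with a relative signal of 0.20 in Gli2 shRNA cells and 0.988 in control cells (-2.30 ± 0.22). Its dimmer probe, above background on the control array only, lay lower as well. With normexp the Ppargc1a difference was -1.60. In the same list Mbtps2, the site-2 protease that releases SREBP, differed by 0.68 ± 0.20, with 0.11 on its other probe. The citrate carrier Slc25a1, which exports the carbon that Acly uses, was 1.62-fold lower (-0.70 ± 0.20, and -0.76 on its other probe), or -0.56 with median scaling, which is within 1.5-fold. In that list of 7 precursor suppliers, Slc25a1 was the gene past 1.5-fold, against 6.54% of all genes lower by that rule. None of the list was past 2-fold, and Pcx (0.56 ± 0.20), Pgd (0.22 ± 0.20) and Idh1 (-0.12 ± 0.21) were the other highest and lowest.

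Acyl-CoA thioesterases, which undo the Acsl reaction, went both ways. Acot9, a mitochondrial thioesterase, was 2.30-fold higher (1.20 ± 0.21, and 1.25 on its other probe), and Them4, another mitochondrial family member, was 2.18-fold lower (-1.12 ± 0.21). Of 9 measured genes of this list, 2 were higher and 3 lower by 1.5-fold, against 6.0% and 6.54% of all genes. With normexp Acot9 (0.98) and Them4 (-0.89) were within 2-fold, and Them4 was also with median scaling (-0.99). Hacd2, which catalyses the dehydration step of chain elongation, was 2.45-fold lower (-1.29 ± 0.20) on its 1 probe. It was the gene past 1.5-fold among 10 measured in its list, against 6.54% of all genes lower by that rule. Its relatives Hacd1 (0.31 ± 0.20) and Hacd3 (0.05 ± 0.20) were not past 1.5-fold. Hacd2 stayed past 2-fold in every setting.

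Of 19 measured genes of other glycerolipid and sterol ester synthesis, 12 lay below 0 and 36.8% above 0, against 50.3% of all genes above 0. By 1.5-fold 2 were higher and 2 lower, against 6.0% and 6.54% of all genes. Agpat2, which adds the second acyl chain in triglyceride synthesis, was 2.41-fold higher (1.27 ± 0.21, and 1.16 on its other probe), or 0.85 with normexp. The remaining lists had no gene past 2-fold, against 1.84% of all genes higher and 1.79% lower. By 1.5-fold, 6.0% of all genes were higher and 6.54% lower. Uptake and binding (11 measured) had none past 1.5-fold, with Vldlr (0.47 ± 0.20) and Slc27a4 (0.30 ± 0.21) highest and Lpl (-0.57 ± 0.21) and Slc27a5 (-0.21 ± 0.30) lowest. Peroxisomal oxidation (12 measured) had none past 1.5-fold either, with Scp2 (0.29 ± 0.20) and Amacr (0.25 ± 0.20) highest and Abcd3 (-0.44 ± 0.20) lowest. Other droplet genes (14 measured) had a median of 0.06, which was 0.31 over the 8 with a signal of at least 50 and -0.09 with normexp. By 1.5-fold they had 1 higher and 2 lower, against 6.0% and 6.54% of all genes. The higher was Abhd5, the coactivator of Pnpla2, at 0.59 ± 0.21. The lower were the dim G0s2 (-0.84 ± 0.31), which inhibits Pnpla2, and Pnpla1 (-0.80 ± 0.35). Dagla, an endocannabinoid-forming lipase, was the next highest of that list at 0.55 ± 0.20.

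**Figure D4:**
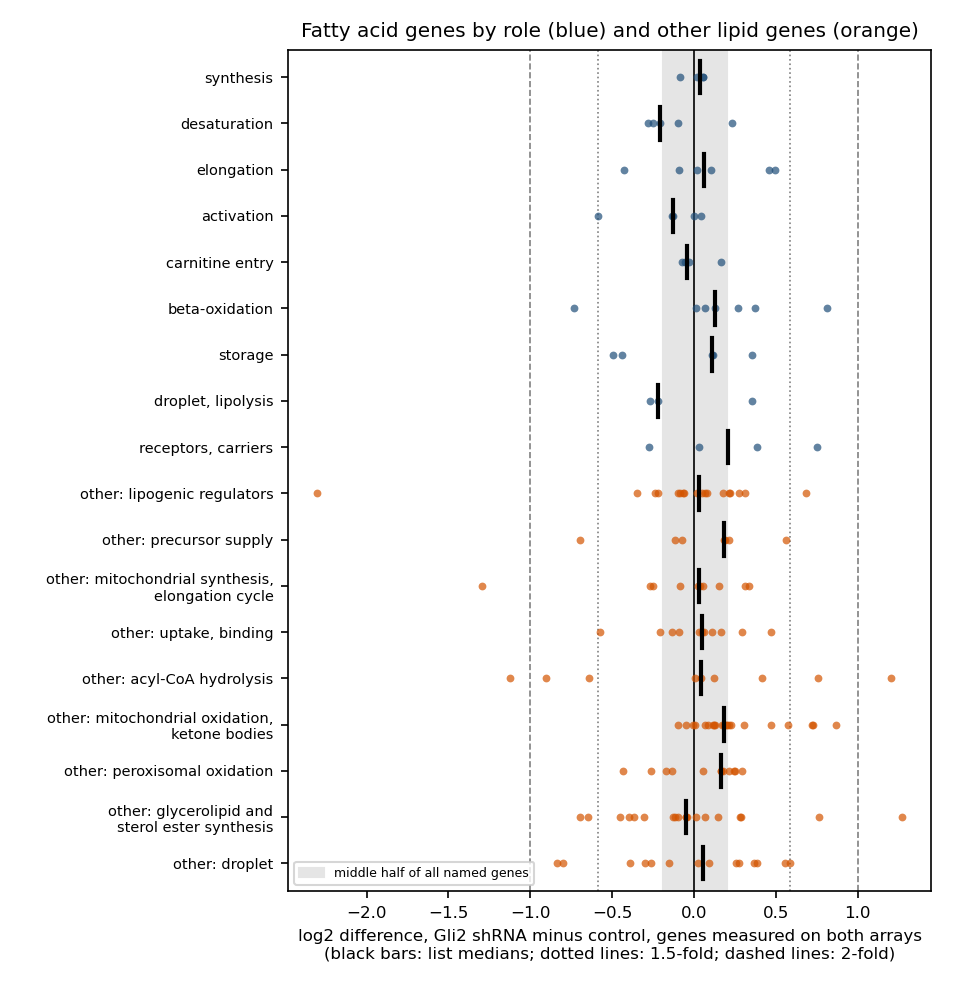
Log2 difference, Gli2 shRNA minus control, of the members by role (blue) and of 9 lists of other lipid genes (orange), for genes measured on both arrays. Black bars are list medians and the grey band lies between the quartiles of all named genes. The medians run from -0.22 (droplet and lipolysis) to 0.21 (receptors and carriers), the first over 3 genes and 0.07 over the 2 with a signal of at least 50, and Ppargc1a is the point near -2.30.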

How the data were processed

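Cy3-labelled cRNA from total RNA was read on Agilent arrays in 1 colour, per the labels' protocols. The deposited scanner files hold processed signal intensity, background-subtracted by Feature Extraction 12.1.0.3 (protocol GE1_1200_Jun14), per the file headers. The authors' deposited table holds log2 values. Each of its columns equals the log2 processed intensity minus a constant (8.64 for Gli2 shRNA, 8.36 for control), with column medians of -3.69 and -3.55. It served as an alternative.

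Non-control spots flagged as outliers were left out (120 on the Gli2 shRNA array, 126 on the control array), and none was saturated. Spots of a probe were averaged as log2 values. The 75th percentile of each array was subtracted. Of 56595 probes, 34560 were named by unversioned RefSeq accession through the GRCm38.p6 gene table and 22035 were not. A gene is its brightest probe, and a difference is Gli2 shRNA minus control. Members and lists were chosen with earlier results of these data known. Named genes are all members, Gli2, and, per other list, genes past 2-fold or else the 2 highest and 2 lowest; Srebf1, Mlxipl, Hacd1, Hacd3 and genes past 1.5-fold were added after their values were seen. Some genes of the other lists are not reported here. Between spots of probes with 9 or more spots, the median SD was 0.04 on each array. These probes were bright, with median signals of 74900.8 on the Gli2 shRNA array and 65914 on the control array. The SD therefore does not cover dimmer probes, such as those of most members. With 1 array per group, the number of arrays limits the precision. Gene-level steps were checked on simulated data, a copy of the control array with planted changes larger than any member's difference. Recovery was counted at 2-fold, so the check does not cover calls at 1.5-fold. The software was Python 3.11.15 and limma 3.58.1.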

Additional observations from a re-analysis of the deposited data

How the results depend on the processing

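The counts of members past 2-fold were 0 higher and 0 lower as reported and in the alternatives, except that without the filter on dim probes 1 (Lpin3, not well above background on either array) was lower. The counts past 1.5-fold, 2 higher and 2 lower as reported, moved with normexp (1 higher), median scaling (4 higher, 1 lower), quantile normalization (1 lower), the mean of probes (1 lower) and no filter (4 lower). The member median was 0.154 with median scaling, where that of all genes was 0.14. Normexp used median spot signals and an offset of 50, changed together, and was set up after the files were seen. Over all genes, 1.5-fold calls were 874 higher and 953 lower as reported, 436 and 449 with normexp, 1364 and 616 with median scaling, 1698 and 3807 without the filter, and 595 and 578 with a signal of at least 50. The 2-fold calls were 268 and 260 as reported, 67 and 100 with normexp, 769 and 2075 without the filter, and 150 and 147 with a signal of at least 50. The causes were not tested. Naming probes by a gene name column was not run. No paired analysis was possible because each group has 1 array, and no replicate could be left out. Spots near background limit Cpt1b, Lipe, Mgll and Lpin3.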
